A study of Neurospora crassa with 2 samples.

Results

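The *N. crassa* genes described here are those whose annotation in the deposited table names a glutathione, glutaredoxin, thioredoxin or peroxiredoxin protein, glutamate-cysteine ligase, a peroxidase, a methionine sulfoxide reductase, an aldo-keto reductase, a quinone oxidoreductase or a short chain dehydrogenase, with annotations of ubiquinone left out. The words chose 61 of 9730 genes by annotation alone, though earlier results of these data were known, and none of these annotations was checked beyond its words. RNA was taken from mycelia of Δ*gul*-*1*, a strain that lacks the mRNA binding protein gene *gul*-*1*, and of the wild type (WT), both obtained from the Fungal Genetics Stock Centre. Conidia of either strain were grown for 3 days at 25 °C under constant light in a medium of 2% Avicel, a microcrystalline cellulose, with Vogel's salts, 0.75% yeast extract and 0.2% Tween 80. There was 1 library per strain, with 20341292 reads assigned to genes for Δ*gul*-*1* and 20461987 for WT, so no difference given here has a replicate and no p-value is given. The deletion was visible in the libraries, with 304 reads of *gul*-*1* (NCU01197) in Δ*gul*-*1* and 21537 in WT. Among the purposes of the study was to learn how Δ*gul*-*1* copes with oxidants, including diamide, which oxidizes glutathione, on plates, and the libraries were made from cultures without these oxidants.

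Glutathione, a peptide of glutamate, cysteine and glycine, is the main small thiol of fungal cells. It is made by glutamate-cysteine ligase and glutathione synthetase, kept reduced by glutathione reductase at the cost of NADPH, joined to foreign or damaged compounds by glutathione transferases and used by glutaredoxins to reduce disulfides. Thioredoxins form a parallel disulfide reducing system, which feeds peroxiredoxins and methionine sulfoxide reductases. Aldo-keto reductases, quinone oxidoreductases and short chain dehydrogenases are broad families that use NAD(P)H to reduce aldehydes, ketones and quinones, and many of their members act in ordinary metabolism and not in defence.

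Of the 61 genes, 34 had more than 20 RPKM (reads relative to exon length and library total) in at least 1 library, the expression floor of the study's methods, and 33 of these lay within 2-fold, as did 4122 of the 4409 genes past the floor in the whole table. The exception was the glutathione S-transferase gene *gst*-*3*, at 8.22 RPKM in Δ*gul*-*1* and 22.9 RPKM in WT. No gene was at least 2-fold higher in Δ*gul*-*1* and 1 was at least 2-fold lower, where over those 4409 genes 3.88% were higher and 2.63% lower. Counts this small are near those shares, and nothing is read from them about the families. With TMM scaling of the reads, explained next, the counts were again 0 and 1, beside 3.03% and 3.48% of all genes. At 1.5-fold on the deposited RPKM, 3 genes were higher, where 10.8% of all genes were, and 3 were lower, where 5.76% of all genes were. With TMM, NCU01219 (1.45) and NCU09534 (1.42) of the 3 higher genes fell under 1.5, and the 3 lower genes stayed beyond it.

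Within that narrow range most of the genes leaned towards Δ*gul*-*1*. The ratio of Δ*gul*-*1* to WT was above 1 for 27 of the 34 genes, or 79.4%, against 63.9% of all genes past the floor. The 95% counting interval, an exact interval from the reads of both libraries that covers counting error only, lay wholly above 1 for 23 genes (52.3% of all genes past the floor) and wholly below 1 for 5 (26.9%), and held 1 for the other 6. The median log2 ratio of the 34 genes was 0.28, and that of all genes past the floor was 0.11. Scaling the reads by TMM, which allows for a few abundant genes taking up reads, shifted every log2 ratio by -0.15, so that the medians were 0.13 for the 34 genes and -0.04 for all genes, with 22 of the 34 and 44.0% of all genes above 1. Directions below are on the deposited RPKM, and 5 genes with ratios between 1.03 and 1.11 (NCU01419, NCU03339, NCU03891, NCU04098 and NCU06652) were below 1 with TMM. Over all 61 genes the RPKM summed to 2924 in Δ*gul*-*1* and 2564 in WT. With 1 culture per strain, shifts of this size cannot be told apart from the variation between cultures.

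**Figure D1:**
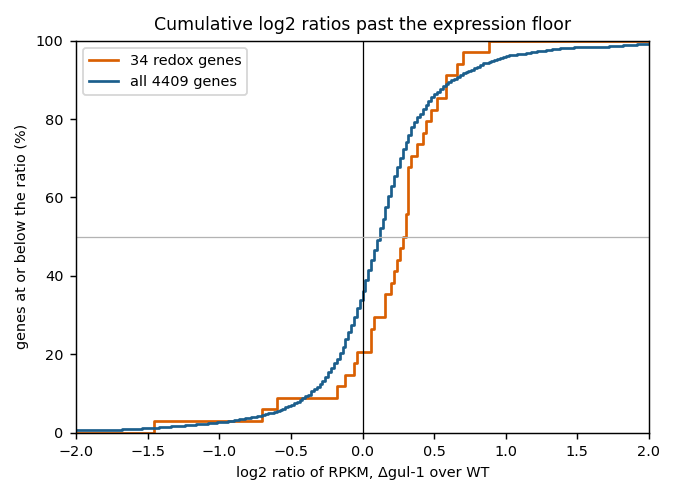
Share of genes (y axis, percent) at or below each log2 ratio of Δ*gul*-*1* to WT RPKM (x axis) for the 34 redox genes and for all 4409 genes past the floor of 20 RPKM. The curve of the redox genes crosses 50% at 0.28 and that of all genes at 0.11, and no redox gene lies above 0.86.

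**Figure D2:**
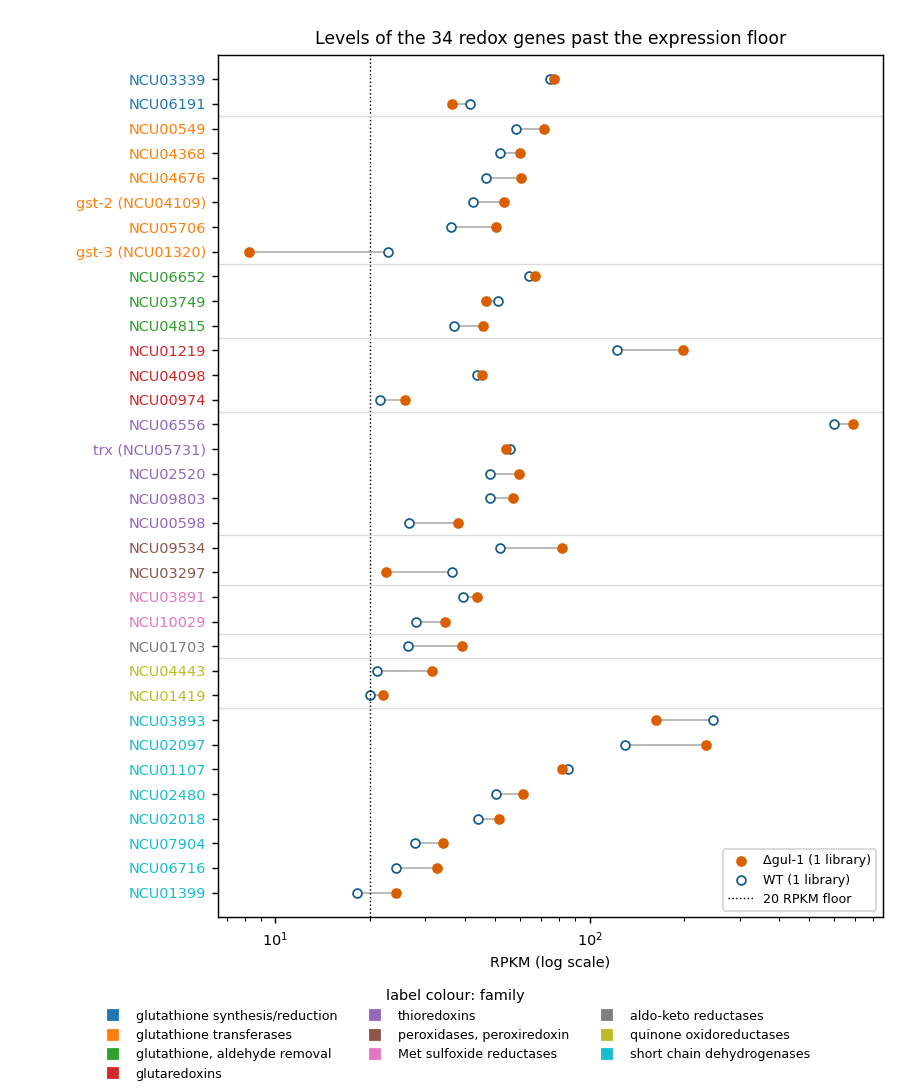
RPKM (x axis, log scale) of each of the 34 genes past the floor in the single Δ*gul*-*1* library (filled) and the single WT library (open), ordered by family and then by level. The thioredoxin II gene NCU06556 stands far to the right of the rest at 687 and 599 RPKM, and *gst*-*3* is the only gene whose Δ*gul*-*1* point lies left of the 20 RPKM line.

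The genes that make and recycle glutathione were level or somewhat lower in Δ*gul*-*1*. The most abundant, the glutathione reductase gene NCU03339 (chromosome II, 1044478 to 1046785 in the NC12 assembly), had 77.1 RPKM in Δ*gul*-*1* and 74.7 RPKM in WT, with an interval of the ratio from 0.984 to 1.08. NCU06191, annotated as the large subunit of glutathione synthetase, which adds glycine in the last step of synthesis, had 36.5 RPKM in Δ*gul*-*1* and 41.7 RPKM in WT (ratio 0.875, interval 0.814 to 0.940). NCU01157, the catalytic subunit of glutamate-cysteine ligase, which catalyses the first and usually limiting step, stayed below the floor, with 663 reads in Δ*gul*-*1* and 898 in WT, or 9.81 and 13.2 RPKM (ratio 0.743, interval 0.671 to 0.822). Both synthesis genes therefore had intervals wholly below 1, as did 26.9% of all genes past the floor, and neither reached 2-fold. Of the pair, only NCU06191 was past the floor. The single gene found for glutathione breakdown, the γ-glutamyltranspeptidase gene NCU01753, was also below the floor, at 3.57 RPKM in Δ*gul*-*1* and 6.85 RPKM in WT (ratio 0.522, interval 0.437 to 0.621, and 0.470 with TMM scaling).

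Among the 9 glutathione transferase genes, whose enzymes join glutathione to electrophilic compounds, *gst*-*3* lay opposite to the other 5 past the floor. *gst*-*3* (NCU01320, chromosome V, 3650198 to 3651283) had 153 reads in Δ*gul*-*1* and 429 in WT, which is 2.79-fold lower in Δ*gul*-*1* (interval 2.31 to 3.37). It was also the least abundant of the 6 in both libraries and stood close to the floor in WT, and at a floor of 50 RPKM it would not have been counted. Its span in RefSeq shares 151 bases with the hypothetical protein gene NCU01319, which had a ratio of 0.726, and no source used here says whether strand entered the counting.

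The other 5 transferase genes past the floor were all somewhat higher in Δ*gul*-*1*, with ratios between 1.16 and 1.39 (1.05 to 1.25 with TMM). Their intervals on the deposited RPKM lay wholly above 1, which was so for 52.3% of all genes past the floor. NCU00549, of the omega class, had 71.7 RPKM in Δ*gul*-*1* and 58.4 RPKM in WT. NCU04676 had 60.3 RPKM in Δ*gul*-*1* and 46.8 RPKM in WT, and NCU04368, annotated as Gst3 but a different gene from *gst*-*3*, had 60.3 and 51.9 RPKM in the same order. *gst*-*2* (NCU04109) had 53.5 RPKM in Δ*gul*-*1* and 42.7 RPKM in WT, and NCU05706 had 50.5 RPKM in Δ*gul*-*1* and 36.3 RPKM in WT. These 5 genes thus lay in a narrow band of level in each strain. The 3 below the floor were *gst*-*1* and NCU09570, with ratios of 1.51 and 1.64, and *gst*-*4*, whose interval of 0.639 to 1.07 held 1. Summed over the 9 genes, transferase RPKM was 331 in Δ*gul*-*1* and 278 in WT.

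Genes for the glutathione-dependent removal of aldehydes showed no common direction. NCU06652, one of 3 genes annotated as S-(hydroxymethyl)glutathione dehydrogenase, the enzyme that oxidizes the adduct of formaldehyde and glutathione, had 67.2 RPKM in Δ*gul*-*1* and 64.0 RPKM in WT. The other two stayed below the floor, with ratios of 0.727 for NCU11395 and 1.58 for NCU00028. Of the glyoxalase route, which turns methylglyoxal into lactate, the lactoylglutathione lyase gene NCU04815 had 45.6 RPKM in Δ*gul*-*1* and 36.9 RPKM in WT (ratio 1.24, interval 1.14 to 1.34). The hydroxyacylglutathione hydrolase gene NCU03749, the next step of that route, had 46.8 RPKM in Δ*gul*-*1* and 51.0 RPKM in WT (ratio 0.918, interval 0.856 to 0.984). The 2 steps of the route therefore had ratios on opposite sides of 1.

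**Figure D3:**
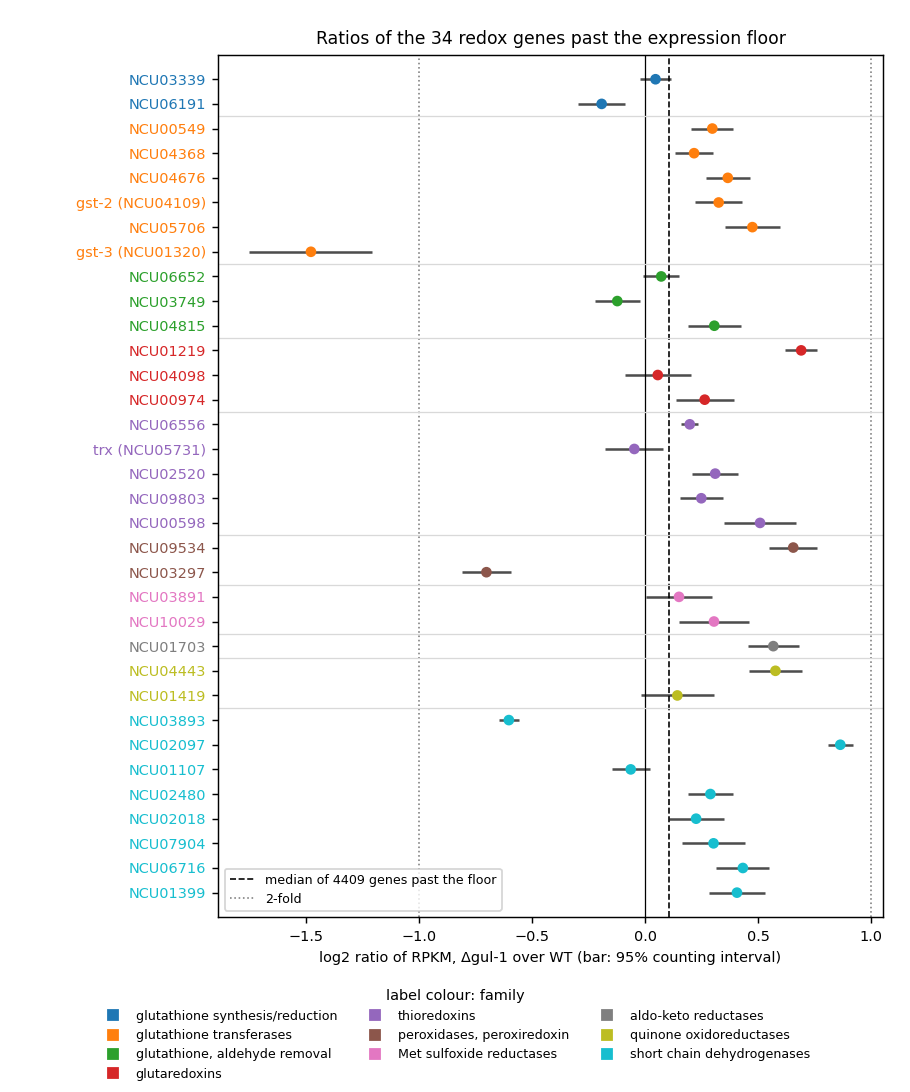
Log2 ratio of Δ*gul*-*1* to WT RPKM (x axis) for the 34 genes past the floor, with bars for the 95% counting interval, a dashed line at the median of all 4409 genes past the floor (0.11) and dotted lines at 2-fold. *gst*-*3* (-1.48) is the only point beyond 2-fold, and the farthest point on the other side is the short chain dehydrogenase gene NCU02097 (0.86).

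One glutaredoxin gene accounted for most of the difference in its family. NCU01219 (chromosome V, 3279346 to 3280694) was the most abundant of the 4 glutaredoxin genes, with 4132 reads and 198 RPKM in Δ*gul*-*1* and 2576 reads and 123 RPKM in WT (ratio 1.61, interval 1.54 to 1.70). NCU00974 had 25.9 RPKM in Δ*gul*-*1* and 21.6 RPKM in WT (ratio 1.20, interval 1.10 to 1.31). The monothiol glutaredoxin-5 gene NCU04098, whose yeast namesake serves iron-sulfur cluster assembly in mitochondria, had 45.5 RPKM in Δ*gul*-*1* and 43.8 RPKM in WT, and its interval held 1. The short gene NCU16385, with an exon length of 327 bases, was below the floor with 75 reads in Δ*gul*-*1* and 45 in WT. Ratios of the family were above 1 for all 4 genes, 3 of them with TMM scaling. Among those past the floor only NCU01219 was more than 1.5-fold higher, and its ratio was 1.45 with TMM.

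Of the 5 thioredoxin genes past the floor, 4 were somewhat higher in Δ*gul*-*1*, with ratios between 1.15 and 1.42 (1.03 to 1.28 with TMM). On the deposited RPKM the intervals of these 4 lay wholly above 1, as did those of 52.3% of all genes past the floor. The thioredoxin II gene NCU06556 (chromosome IV, 1621145 to 1622380) was the most abundant of all 61 genes, with 12652 reads and 687 RPKM in Δ*gul*-*1* and 11100 reads and 599 RPKM in WT, and it ranked 76 in Δ*gul*-*1* and 89 in WT among the 9730 genes by RPKM. Its ratio was 1.15 (interval 1.12 to 1.18). The gene RefSeq names *trx* (NCU05731) had 54.2 RPKM in Δ*gul*-*1* and 56.0 RPKM in WT, and its interval held 1. NCU02520 had 59.8 RPKM in Δ*gul*-*1* and 48.3 RPKM in WT (interval 1.16 to 1.33), and NCU09803 had 57.1 RPKM in Δ*gul*-*1* and 48.0 RPKM in WT (interval 1.11 to 1.27). NCU00598 had the largest ratio of the family, 1.42 (interval 1.27 to 1.59), at 38.0 RPKM in Δ*gul*-*1* and 26.7 RPKM in WT. The sixth gene, NCU03714, was below the floor at 222 and 268 reads in Δ*gul*-*1* and WT.

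The 3 genes with a peroxidase or peroxiredoxin annotation diverged. NCU09534 (chromosome V, 4498734 to 4499929), annotated as peroxiredoxin HYR1, whose yeast namesake is a thiol peroxidase that also senses hydrogen peroxide, had 1841 reads and 81.5 RPKM in Δ*gul*-*1* and 1176 reads and 51.7 RPKM in WT (ratio 1.57, interval 1.46 to 1.70). Its span overlaps by 104 bases the Rossmann fold oxidoreductase gene NCU09533, which had 30.1 RPKM in Δ*gul*-*1* and 16.1 RPKM in WT. Only reads of a single gene were counted, and whether strand entered the counting is not known. The cytochrome c peroxidase gene NCU03297 (chromosome I, 5221686 to 5224332), for an enzyme that removes hydrogen peroxide in mitochondria, had 22.5 RPKM in Δ*gul*-*1* and 36.6 RPKM in WT, 1.63-fold lower (interval 1.51 to 1.76). The HYR1 and cytochrome c peroxidase genes thus lay on opposite sides of 1, and neither reached 2-fold. The dyp-type peroxidase gene NCU09210 (chromosome I, 5849601 to 5852150), of the dye-decolourizing class, had the smallest ratio of all 61 genes, with 91 reads in Δ*gul*-*1* and 710 in WT. This was 2.04 RPKM in Δ*gul*-*1* and 15.9 RPKM in WT, 7.76-fold lower (interval 6.23 to 9.76), but it did not pass the floor and so is not among the counts above.

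Both methionine sulfoxide reductase genes, whose enzymes repair oxidized methionine, were within 2-fold. The *msrA* type gene NCU10029 had 34.7 RPKM in Δ*gul*-*1* and 28.1 RPKM in WT (ratio 1.23, interval 1.11 to 1.37). The *msrB* type gene NCU03891 had 43.9 RPKM in Δ*gul*-*1* and 39.6 RPKM in WT, and its interval began at 1.00.

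The aldo-keto reductase gene NCU01703 and the quinone oxidoreductase gene NCU04443 were among the genes with larger ratios. NCU01703 had 39.1 RPKM in Δ*gul*-*1* and 26.4 RPKM in WT (ratio 1.48, interval 1.37 to 1.60). NCU04443 had 31.5 RPKM in Δ*gul*-*1* and 21.1 RPKM in WT (ratio 1.49, interval 1.37 to 1.62), and the second quinone oxidoreductase gene, NCU01419, had 22.06 RPKM in Δ*gul*-*1* and 19.98 RPKM in WT, with an interval that held 1. The second aldo-keto reductase gene, NCU11289, had 18 reads in Δ*gul*-*1* and 5 in WT, too few for its ratio of 3.62 (interval 1.30 to 12.5) to be read as more than a count; it falls outside the rule for named genes and was named after its values were seen.

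The short chain dehydrogenase genes were the largest family, with 25 genes, and had the smallest share past the floor, 8 genes or 32.0%. Over all 9730 genes this share was 45.3%. The 2 most abundant differed in opposite directions. NCU02097 (chromosome I, 1298092 to 1299820) had 7780 reads and 235 RPKM in Δ*gul*-*1* and 4302 reads and 129 RPKM in WT, the largest ratio of the 34 genes at 1.82 (interval 1.75 to 1.89). NCU03893 (chromosome VI, 2073560 to 2075786) had 7174 reads and 163 RPKM in Δ*gul*-*1* and 10962 reads and 247 RPKM in WT, 1.52-fold lower (interval 1.47 to 1.57). NCU02097 was thus the most abundant gene of the family in Δ*gul*-*1*, and NCU03893 was the most abundant in WT. NCU01107 had 81.8 RPKM in Δ*gul*-*1* and 85.5 RPKM in WT, and its interval held 1, whereas NCU06716 had 32.7 RPKM in Δ*gul*-*1* and 24.2 RPKM in WT (ratio 1.35, interval 1.24 to 1.46). The other 4 past the floor (NCU02480, NCU02018, NCU07904 and NCU01399) had ratios between 1.17 and 1.33. NCU02097 shares 111 bases of its span with the DNA glycosylase gene NCU02098, which had a ratio of 0.708, on the other side of 1.

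**Figure D4:**
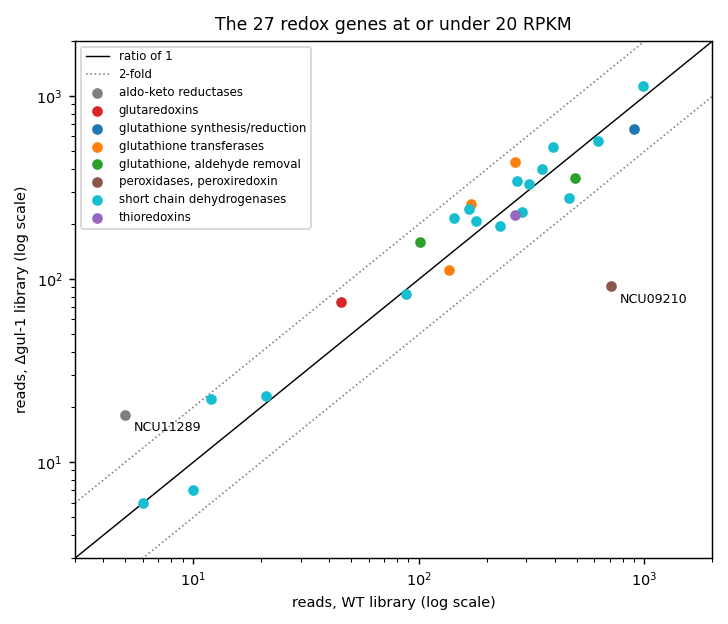
Reads of the 27 genes at or under 20 RPKM in the Δ*gul*-*1* library (y axis) and the WT library (x axis), both on log scales, coloured by family, with lines at a ratio of 1 and at 2-fold. Only NCU09210 (91 reads in Δ*gul*-*1*, 710 in WT) and NCU11289 (18 and 5) lie outside the 2-fold lines.

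Of the 27 genes at or under the floor, 25 lay within 2-fold, 1 was at least 2-fold higher in Δ*gul*-*1* (NCU11289) and 1 was at least 2-fold lower (NCU09210). Among all genes at or under the floor with reads in both libraries, the shares past these thresholds were 12.3% higher and 2.91% lower. The 27 genes had a median log2 ratio of 0.14, and 7 of them had fewer than 100 reads in both libraries. The gene nearest under the floor was the short chain dehydrogenase gene NCU00148, at 19.1 RPKM in Δ*gul*-*1* and 16.5 RPKM in WT, and the nearest above it in its higher library was NCU01419.

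The genes lie on all 7 chromosomes, with 18 on chromosome I and 16 on chromosome V. Only 2 pairs lie within 5 positions of each other in RefSeq order. The short chain dehydrogenase genes NCU02922 and NCU02920 have 1 gene between them and were both nearly silent, with at most 22 reads in either library. The *msrB* type gene NCU03891 and the short chain dehydrogenase gene NCU03893 have 3 genes between them, and their ratios, 1.11 and 0.658, lay on opposite sides of 1. In RefSeq 20 of the 61 genes overlap another gene, 13 of them among the 34 past the floor.

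Genes that supply glutathione and its reducing power were taken from lists of annotation words, which do not cover these pathways fully. The words missed *cys*-*11* (ratio 0.393) and *cys*-*2* (ratio 0.427), both past the floor. These are described at the end and were taken up after their values had been seen. The other 4 *cys* genes past the floor were within 2-fold. The sulfur counts and median that follow leave all *cys* genes out. Of 15 genes listed for cysteine and sulfur metabolism, 5 passed the floor and none of the 5 was at least 2-fold higher or lower, where 3.88% and 2.63% of all genes past the floor were. With 5 genes, nothing is read from that count. Their median log2 ratio was 0.30, beside 0.11 for all genes. The most abundant, the cystathionine β-lyase gene NCU07987, had 176 RPKM in Δ*gul*-*1* and 101 RPKM in WT (ratio 1.75, interval 1.69 to 1.81), and the cystathionine β-synthase gene NCU08216, for the enzyme that joins homocysteine and serine, had 30.7 RPKM in Δ*gul*-*1* and 19.7 RPKM in WT. Below the floor, the phosphoadenosine phosphosulfate reductase gene NCU02005, of sulfate reduction, had 8.42 RPKM in Δ*gul*-*1* and 17.7 RPKM in WT, 2.10-fold lower (interval 1.84 to 2.41). The cysteine dioxygenase gene NCU06625, whose enzyme class oxidizes cysteine, had 15.1 RPKM in Δ*gul*-*1* and 6.77 RPKM in WT (ratio 2.23, interval 1.91 to 2.61). The opposite ratios of this pair were both from genes of low level. The remaining genes of the list beyond 2-fold had almost no reads, with 6 in Δ*gul*-*1* and 2 in WT for the cystathionine γ-synthase gene NCU05093 (ratio 3.02, interval 0.540 to 30.6) and 1 in Δ*gul*-*1* and 0 in WT for NCU04069, annotated as a phosphoadenosine phosphatase.

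The list of 8 genes for the pentose phosphate route and malic enzymes holds steps that make NADPH and others, such as transketolase and transaldolase, that do not. In it 4 genes passed the floor and none of them reached 2-fold in either direction, beside the same 3.88% and 2.63% of all genes, with a median log2 ratio of 0.10, close to that of all genes. The glucose-6-phosphate 1-dehydrogenase gene NCU09111, for the step that commits glucose to this route, had 188 RPKM in Δ*gul*-*1* and 190 RPKM in WT (interval 0.962 to 1.02). The NADP-dependent malic enzyme gene NCU03651 had 17.6 RPKM in Δ*gul*-*1* and 26.2 RPKM in WT (ratio 0.673, interval 0.628 to 0.721).

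Of the 9 catalase and superoxide dismutase annotations, 6 passed the floor and none of them reached 2-fold, a count near the shares of 3.88% and 2.63% over all genes, with a median log2 ratio of 0.02. The catalase gene *cat*-*3* (NCU00355) missed the floor narrowly and had 277 reads and 4.42 RPKM in Δ*gul*-*1* and 1237 reads and 19.6 RPKM in WT, 4.44-fold lower (interval 3.89 to 5.08). Also below the floor, *cat*-*4* (NCU05169) had a ratio of 0.555 and the superoxide dismutase copper chaperone gene NCU07851 a ratio of 1.48. *cat*-*3* and the peroxidase gene NCU09210 were both at 15 to 20 RPKM in WT and under 5 RPKM in Δ*gul*-*1*. They are set side by side only because their values were seen to be alike.

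RNA of conidia and aerial hyphae can be present in a mycelial harvest, and in bulk RNA fewer cells of a type and less RNA per cell cannot be told apart. The 14 genes listed were *eas*, *fl*, *con*-*6*, *con*-*8*, *con*-*10* and those with conidiation in the annotation, which include regulators as well as markers. Of these, 13 passed the floor. Among the 13, 1 was at least 2-fold higher (*con*-*6*, within 2-fold with TMM) and 2 at least 2-fold lower (the hydrophobin gene *eas* and the regulator *fl*). Over all genes past the floor 3.88% were higher and 2.63% lower, and with 13 genes nothing is read from these counts. Over all 14 genes, past the floor or not, the RPKM summed to 1675 in Δ*gul*-*1* and 7426 in WT. Without *eas* it summed to 1506 in Δ*gul*-*1* and 1633 in WT. Of the defining genes, *eas* had 169 RPKM in Δ*gul*-*1* and 5793 RPKM in WT, 34.3-fold lower (interval 33.4 to 35.2). *fl* had 22.3 RPKM in Δ*gul*-*1* and 55.2 RPKM in WT, and *con*-*6* had 21.3 and 10.3 RPKM in the same order. *con*-*8* had 511 RPKM in Δ*gul*-*1* and 706 RPKM in WT, and *con*-*10* had 229 RPKM in Δ*gul*-*1* and 159 RPKM in WT. None of the defining genes was at 0. Their part in the difference of *gst*-*3* or NCU09210 was not tested.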

How the data were processed

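The deposited table gave reads and RPKM of 9730 genes for 1 Δ*gul*-*1* and 1 WT library. Mapping by the authors used TopHat 2.0.8b and predicted transcripts of genome version 12 and made the deposited counts with HTSeq 0.5.4p2 from reads of a single gene (versions per the labels). The RPKM values were calculated by the authors from exon length and the column total, which the table bore out to within 9.1e-13. A column of the authors' NOISeq probabilities was not used. The exon length in bases is the authors' own and enters no test.

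Ratios are Δ*gul*-*1* over WT, on RPKM and with no pseudocount. Genes above 20 RPKM in at least 1 library were kept, and ratios of at least 2 or at most 0.5 were counted as higher or lower. Exact 95% intervals are conditional binomial (Clopper-Pearson) intervals of the reads, which cover counting error only and lay a factor of 1.08 from the ratio for the median gene of the 34. At their median exon length the floor stood for 592 reads in Δ*gul*-*1* and 596 in WT. No test was possible with 1 library per strain.

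The genes named were all those past the floor at or beyond 2-fold; all past the floor of the glutathione, glutaredoxin, thioredoxin, peroxidase and methionine sulfoxide reductase families; in the other families the 3 most abundant and the 3 of largest log2 ratio; below the floor, those at or beyond 4-fold with at least 30 reads; and in the supply lists those at or beyond 2-fold and up to 4 others by abundance. Any other gene was picked with its values in view. The genes, lists and rules were chosen with earlier results of these data known. Symbols and positions are from RefSeq for NC12, where all 61 loci were matched by locus tag. Alternatives were TMM and median-of-ratios scaling, the total without the 50 most abundant genes, floors of 5 and 50 RPKM and none, a pseudocount of 1 RPKM, thresholds of 1.5-fold and 3-fold, and intervals wholly beyond 2-fold. The steps were tested on simulated counts. Python 3.11.15, pandas 2.3.3, numpy 2.4.6, scipy 1.17.1, matplotlib 3.10.9, R 4.3.3 and edgeR 4.0.16 (TMM factors only) were used.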

Additional observations from a re-analysis of the deposited data

How the results depend on the processing

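The count of genes at least 2-fold lower in Δ*gul*-*1*, 1 on the deposited RPKM (*gst*-*3*), was 2 at a floor of 5 RPKM and 2 with no floor, where NCU09210 joined it. It was 0 at a floor of 50 RPKM and 0 at a 3-fold threshold, and 3 at a 1.5-fold threshold, which added NCU03297 and NCU03893. The count at least 2-fold higher was 0 except with no floor (1, NCU11289) and at a 1.5-fold threshold (3, NCU01219, NCU09534 and NCU02097), with the shares of all genes given above. Both counts kept their values under the 3 other scalings, the pseudocount and the rule of intervals wholly beyond 2-fold.

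The median log2 ratio of 0.28 became 0.13 with TMM and 0.13 with median-of-ratios scaling, and was 0.22 to 0.27 under the other alternatives. With TMM, 30 of the 34 log2 ratios left their own counting interval, since that interval does not cover the choice of scaling. No paired analysis was possible because each strain had a single library, and for the same reason no replicate could be left out. Differences under about 1.08-fold were not detectable for the median gene from its counts alone, and what separates cultures was not measured.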

Other observations

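Genes that the table annotates by the name cysteine and a number (the *cys* mutant loci), not all of them enzymes of cysteine synthesis, are not part of the lists above. They were taken up after their values had been seen, so their counts are a description of what drew attention. Of these 10 genes, 6 passed the floor of 20 RPKM, and among these none was at least 2-fold higher and 2 were lower by that margin, where over all genes past the floor 3.88% were higher and 2.63% lower. A share in a group noticed for its values cannot be set against those shares as a result. *cys*-*11* (NCU01985), the locus of ATP sulfurylase, which activates sulfate, had 1006 reads and 19.2 RPKM in Δ*gul*-*1* and 2575 reads and 48.8 RPKM in WT, 2.54-fold lower (interval 2.36 to 2.74). *cys*-*2* (NCU04077) had 1550 reads and 19.96 RPKM in Δ*gul*-*1* and 3650 reads and 46.7 RPKM in WT, 2.34-fold lower (interval 2.21 to 2.49).

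The other *cys* genes did not share this. Among the listed sulfur genes below the floor, NCU02005 of sulfate reduction was also lower (ratio 0.476), and NCU06625 was higher (ratio 2.23). *cys*-*3* (NCU03536), which encodes the regulator that turns on sulfur acquisition genes, had 66.8 RPKM in Δ*gul*-*1* and 63.5 RPKM in WT (interval 1.01 to 1.09). *cys*-*4* (NCU05238) had 59.8 RPKM in Δ*gul*-*1* and 59.7 RPKM in WT. *cys*-*9* (NCU08352), the locus of thioredoxin reductase, which keeps thioredoxins reduced, was below the floor at 15.3 RPKM in Δ*gul*-*1* and 16.3 RPKM in WT, and its interval held 1.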
